A study of Mus musculus with 91 samples.

Results

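The miR-130 and miR-301 family is a small group of mature miRNAs made from 4 mouse hairpins. The members described here were chosen by name, as mmu-miR-130a-3p, mmu-miR-130b-3p, mmu-miR-130b-5p, mmu-miR-301a-3p and mmu-miR-301b-3p, and are 5 of the 1504 mature miRNAs in the main count table. Small RNA was sequenced by CAS-seq, a method in which Cas9 cuts adapter products before amplification so that picogram amounts of RNA can be used. Of 91 libraries, 62 came from dissected extraembryonic ectoderm (Exe) and epiblast (Epi) of mouse embryos at E6.5 and E7.5, 8 from androgenetic haploid embryonic stem cells (AG-haESCs) whose group the labels give, and 18 from semi-cloned (SC) embryos, which are made by injecting AG-haESCs into oocytes in place of sperm. Exe and Epi came from control embryos or from embryos edited at *Dnmt1* (*Dnmt1*-KO), at both *Dnmt3a* and *Dnmt3b* (*Dnmt3a/3b*-DKO) or at all of these genes (*Dnmt*-null), in which base editing in the zygote placed stop codons, so that the mutants are injected embryos and not lines. All these embryos came from a cross of *Oct4-EGFP* males on a C57BL/6J background (C57BL/6 in the labels) with B6D2F1 females. Every combination of genotype, tissue and stage had 4 libraries apart from the E7.5 Epi of control and of *Dnmt*-null embryos, with 3 each.

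The AG-haESCs were WT (3 libraries), O48 (3 libraries) and Mir-6KO (2 libraries). O48 is the line in which miRNA genes were then deleted, read here as the line lacking the *H19* and *IG* differentially methylated regions (called DKO in AG-haESCs and SC embryos, with no relation to the *Dnmt3a/3b* genotype). Mir-6KO is the label of a line made from O48 by deleting 6 further miRNA genes, none of them of this family; its libraries went against that label, as shown with their values. Edited lines were expanded from single cells, so each is 1 clone. SC embryos at E6.5, of which the epiblast was used, were of 4 kinds: WT, DKO, and each of these with *Dnmt* loss (*Dnmt*-null and DKO;*Dnmt*-null). At E7.5 they were control, derived from DKO cells, and Mir-6KO;*Dnmt*-null. Each SC group had 3 libraries. A mutation of *Dnmt* genes in SC embryos was again introduced by base editing.

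A miRNA acts through its seed, bases 2 to 8, which pairs with target mRNAs. The 3p members of this family share their seed and can therefore bind overlapping targets, while miR-130b-5p comes from the opposite arm of the *Mir130b* hairpin and has another seed. The family is known for its expression in endothelium and proliferating cells, and miR-130b and miR-301b are processed from neighbouring hairpins. The mature sequences from RefSeq (GRCm38.p6) are shown to make visible which members can share targets and how close the copies are, with the seed in capitals.

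miR-130a-3p: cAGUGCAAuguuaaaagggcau
miR-130b-3p: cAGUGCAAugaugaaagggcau
miR-301a-3p: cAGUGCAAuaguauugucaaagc
miR-130b-5p: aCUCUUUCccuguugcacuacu

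The sequence of miR-301b-3p was not analysed here. Of 1679 mature miRNAs in the RefSeq table, 7 had the seed AGUGCAA, and 2 had the seed CUCUUUC of miR-130b-5p. miR-130a-3p and miR-130b-3p matched at 20 of 22 positions and differed by U11A and A13G, with miR-130a-3p first and positions counted from the 5′ end. Reads with errors or trimmed ends can pass between such near-identical copies, so their separate values may be less certain than those of miR-130b-5p. How many reads did so was not tested.

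*Mir130b* lies at chr16:17124061-17124142 and *Mir301b* at chr16:17124400-17124496, both on the minus strand and 257 bases apart, inside an intron of *2610318N02Rik*. *Mir301*, the source of miR-301a, lies at chr11:87113004-87113089 on the plus strand in an intron of *Ska2*. *Mir130a* lies at chr2:84741115-84741178 on the minus strand, overlaps no other annotated gene, and is 991 bases from *Gm19426*. The *Mir130b* hairpin is shown because both of its arms are members and their ratio is described next; the capitals mark miR-130b-5p at positions 13 to 34 and miR-130b-3p at positions 51 to 72.

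Mir130b: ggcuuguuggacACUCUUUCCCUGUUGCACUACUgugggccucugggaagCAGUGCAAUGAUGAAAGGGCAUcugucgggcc

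A call means an adjusted p under 0.05 with edgeR. Calls added by DESeq2 or another setting, apart from the study's own thresholds, are named. Levels are given as CPM, the count of a miRNA scaled to the library's total over all miRNAs. Totals ranged from 45242 to 26970637 counts. Libraries of the 2 tissues separated by marker miRNAs as labelled: the summed level of 4 miR-302 and miR-367 miRNAs of pluripotent cells was 129048 to 198436 CPM in E6.5 Epi control and 17351 to 30714 CPM in E6.5 Exe control, and all 9 listed trophoblast miRNAs of the *Sfmbt2* cluster were detected, at a sum of 9712 to 45576 CPM in the former and 63046 to 116387 CPM in the latter. In 5 libraries, singled out after the data were seen, the median correlation with the others of the group was under 0.73. These were E6.5 Epi *Dnmt3a/3b*-DKO replicate 2, E6.5 Epi *Dnmt*-null replicate 1 (the library of 45242 counts), E6.5 Exe control replicate 1, E6.5 Exe *Dnmt1*-KO replicate 3 and E6.5 SC WT replicate 3. Calls that changed when these libraries were left out are named. Nothing in the labels says whether replicates of embryos were separate litters, so the p-values measure the spread between libraries, and in dissected tissue fewer cells of a type and less RNA per cell cannot be told apart.

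The family was dominated by miR-130b-5p. In E7.5 Epi control, where the 5 members together took the largest mean share of counts, 0.407% ± 0.0198 (SD, n = 3), miR-130b-5p alone supplied 78.9% to 83.8% of that share. In E6.5 Exe *Dnmt1*-KO it was 0.109% ± 0.0366 (SD, n = 4), with 0.0542% in replicate 3, which stood apart, and 0.120%, 0.129% and 0.131% in the others; without that replicate, this group was not the lowest. The next member by level was miR-130a-3p, with 463, 557 and 584 CPM in the E7.5 Epi control libraries, followed by miR-130b-3p with 108, 127 and 234 CPM. Both miR-301 members were rare: miR-301a-3p had 25.9, 43.1 and 51.6 CPM and miR-301b-3p 37.6, 46.3 and 49.9 CPM in the same libraries, so these last 2 overlapped. By mean CPM, miR-130b-5p ranked between 44 and 123 among detected miRNAs in the different groups, and miR-130a-3p between 135 and 298.

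**Figure D1:**
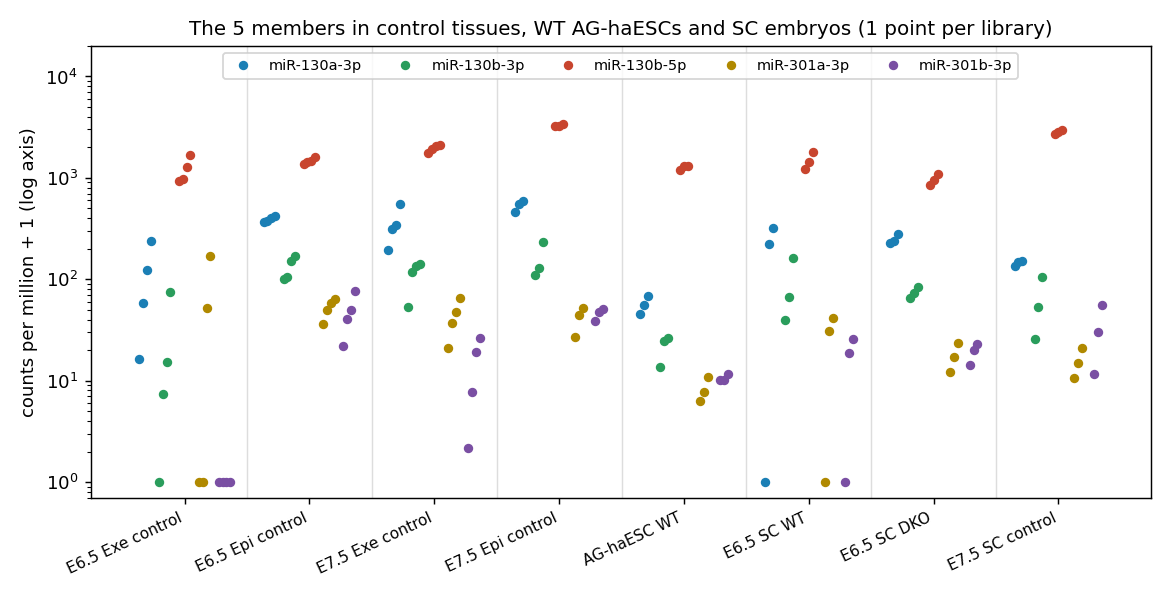
The 5 members in the control tissues, WT AG-haESCs and 3 groups of SC embryos, as CPM + 1 on a log axis with 1 point per library. miR-130b-5p lies highest in every group shown, and all 4 libraries of E6.5 Exe control lie at 0 for miR-301b-3p.

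The arms of the *Mir130b* hairpin were far from equal. In the 74 libraries with at least 10 counts of both arms (0.5 added to each count), miR-130b-5p exceeded miR-130b-3p in all 74, with a median ratio of 16.5-fold and a range of 5.67-fold to 108-fold. The ratio was 8.52-fold to 15.03-fold in E6.5 Epi control and 14.5-fold to 30.1-fold in E7.5 Epi control, and it was 46.8-fold to 102-fold in WT AG-haESCs. The ranges of AG-haESC WT and of both Epi control groups did not overlap. Ratios of 2 different small RNAs also carry differences in ligation and amplification, whose part was not tested. Within the cluster, miR-130b-3p exceeded miR-301b-3p in 39 of 40 usable libraries, with a median of 3.63-fold. miR-301a-3p and miR-301b-3p had a median ratio of 0.973, and miR-301a-3p was the higher in 17 of 36 libraries.

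**Figure D2:**
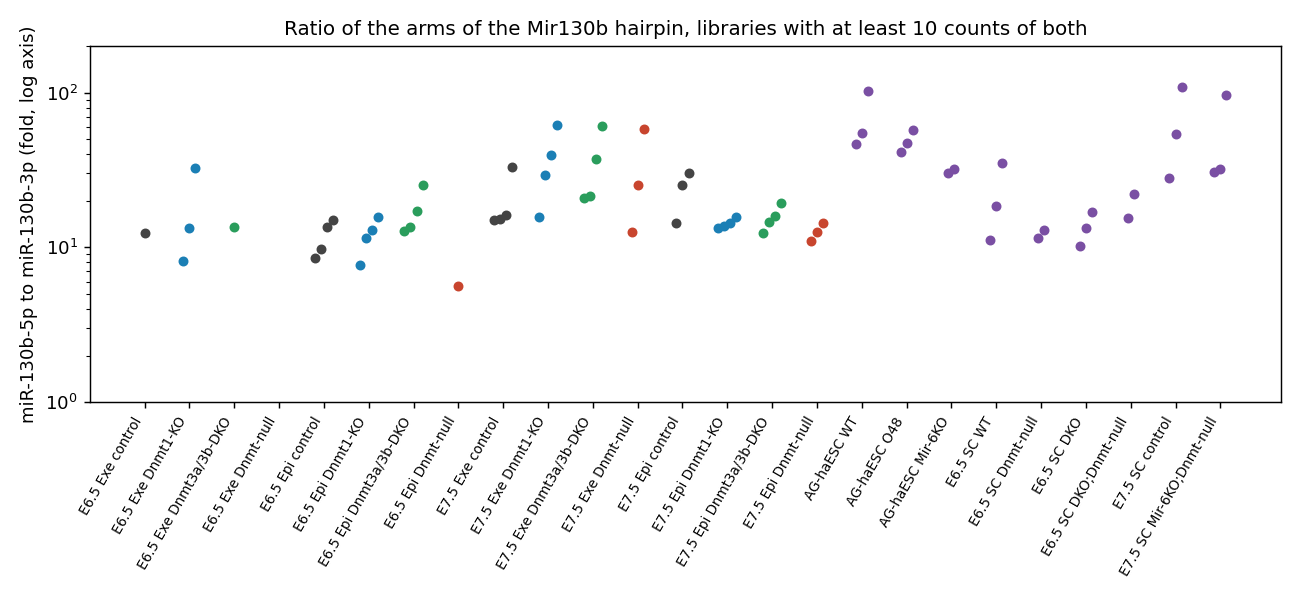
Ratio of miR-130b-5p to miR-130b-3p on a log axis, 1 point per library with at least 10 counts of both arms. All points lie above 1, between 5.67-fold and 108-fold, and E6.5 Exe *Dnmt*-null has no such library.

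The first comparison asked how the family differs between Exe, which contributes to the placenta, and Epi, which forms the embryo. Over 8 genotypes and stages, 7 of the 40 tests of a member passed at an adjusted p under 0.05, and in all 7 the level was lower in Exe; no member was higher in Exe. In E6.5 control, 3 of 5 members were lower in Exe, where 14.3% of the 658 miRNAs tested were lower. miR-130a-3p had 15.2, 57.5, 124 and 237 CPM in Exe against 363, 375.3, 402 and 421 CPM in Epi, and the groups did not overlap. Its log2 fold change was -2.05 ± 0.68 (SE; adjusted p = 0.0245), on counts of 1, 8, 25 and 37 in Exe. miR-130b-3p had 0, 6.39, 14.4 and 74.2 CPM in Exe against 99.6, 105, 150 and 168 CPM in Epi (log2 fold change -2.56 ± 0.84, adjusted p = 0.0226). With 1 library left out, this value lay between -4.15 and -1.93. The median log2 fold change of all miRNAs in this comparison was -0.43.

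miR-301b-3p was not detected in any of the 4 E6.5 Exe control libraries (0 of 563284 counts), and had 20.96, 39.1, 49.1 and 76.3 CPM in Epi. Against 3 counts over the 4 Exe libraries, or 5.33 CPM, its level was at least 8.71-fold higher in Epi (adjusted p = 0.00963). This call held without each library in turn and under the 9 alternatives that gave it a value, while the other 2 calls had 10. It was tested in the model of all 62 Exe and Epi libraries, and was too rare to be tested in the E6.5 models of a single tissue. Its stability is therefore not set above that of the other 2. The calls of miR-130a-3p and miR-130b-3p were each lost under 5 of 10 alternatives, that of miR-130a-3p also without any single library but E6.5 Exe control replicate 4 (largest adjusted p = 0.120) and that of miR-130b-3p without any but E6.5 Epi control replicate 2 or E6.5 Exe control replicate 3 (largest adjusted p = 0.130). Without E6.5 Exe control replicate 1 and the other libraries that stood apart, the log2 fold changes were -1.52 for miR-130a-3p (adjusted p = 0.0264), -1.94 for miR-130b-3p (adjusted p = 0.0533) and, for miR-301b-3p, adjusted p = 0.0201. miR-301a-3p had 0, 0, 51.1 and 167 CPM in Exe against 34.9 to 62.9 CPM in Epi, with adjusted p = 0.889; the 167 CPM are 11 counts of replicate 1.

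miR-130b-5p, the abundant arm, gave the other 4 calls. At E7.5 it had 1765, 1914, 2058 and 2116 CPM in Exe control against 3219, 3274 and 3382 CPM in Epi control, with no overlap. Its log2 fold change was -1.14 ± 0.27 (adjusted p = 8.7e-04), where 9.88% of all miRNAs were lower; over the alternatives this value lay between -1.14 and -0.75, and only testing without a filter on low counts lost the call. In E7.5 *Dnmt3a/3b*-DKO it was also lower in Exe, by -0.94 ± 0.26 (adjusted p = 0.00404; 11.1% of all miRNAs lower). At E6.5 it was lower in Exe of *Dnmt1*-KO by -0.91 ± 0.26 (adjusted p = 0.00516; 13.5% lower; lost without a filter and in a fit of only the groups compared, largest adjusted p = 0.221) and of *Dnmt3a/3b*-DKO by -0.80 ± 0.26 (adjusted p = 0.0181; 11.2% lower). Without the libraries that stood apart, these last 2 values were -0.69 (adjusted p = 0.0278) and -0.85 (adjusted p = 0.00482). Both *Dnmt3a/3b*-DKO calls were also lost without a filter, with adjusted p = 0.0899 at E7.5 and 0.144 at E6.5. Leaving out 1 library alone lost the call of E6.5 *Dnmt1*-KO without Epi replicate 2 or Exe replicate 3 (largest adjusted p = 0.1602). It lost that of E6.5 *Dnmt3a/3b*-DKO without Epi replicate 3 or Exe replicate 1 (0.0695), and that of E7.5 *Dnmt3a/3b*-DKO without Epi replicate 2 or Exe replicate 1 or 2 (0.0856). In E6.5 control, miR-130b-5p had 940, 964, 1279 and 1688 CPM in Exe and 1366 to 1600 CPM in Epi, groups that overlapped (log2 fold change -0.56 ± 0.26, adjusted p = 0.109). With edgeR and all libraries, *Dnmt*-null tissues gave no call at either stage, where 8.36% and 6.69% of all miRNAs were lower in Exe, and neither did E7.5 *Dnmt1*-KO, where 10.3% were lower.

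Other settings added calls at E7.5, all lower in Exe. DESeq2 called miR-130b-3p in *Dnmt1*-KO (-1.71, adjusted p = 0.00907), *Dnmt3a/3b*-DKO (-1.93, adjusted p = 0.00279) and *Dnmt*-null (-1.70, adjusted p = 0.0336), and miR-130b-5p in *Dnmt*-null (-0.70, adjusted p = 0.0173). Without the libraries that stood apart, all of them from E6.5, edgeR called miR-130a-3p, miR-130b-3p and miR-130b-5p in *Dnmt1*-KO (adjusted p = 0.0212, 0.0224 and 0.0196). With all libraries, these were 0.263, 0.145 and 0.434. Without those libraries, edgeR also called miR-130a-3p and miR-130b-3p in *Dnmt3a/3b*-DKO (0.0444 and 0.0167, against 0.224 and 0.0673 with all libraries). In *Dnmt*-null it called miR-130b-5p (0.0435, against 0.0655). The E7.5 libraries are the same in both fits, since 1 model holds both stages. In *Dnmt1*-KO, miR-130b-5p was also called with 2 other settings, TMM factors (scaling factors between libraries) without miRNAs of the *Dlk1-Dio3* locus and a mean of 10 counts, and without Exe replicate 1, and miR-130a-3p without Exe replicate 3. In *Dnmt*-null, miR-130b-5p was called without Exe replicate 4 (adjusted p = 0.019). In fits of only the groups compared, miR-130b-3p was called in *Dnmt1*-KO (adjusted p = 0.0227), and miR-130a-3p and miR-130b-3p in *Dnmt3a/3b*-DKO (0.00343 and 7.92e-04).

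The second comparison followed the family from E6.5 to E7.5, the day on which gastrulation proceeds. In 8 combinations of tissue and genotype, 2 of 40 tests passed, both of miR-130b-5p and both higher at E7.5. In Epi control it rose from 1366, 1436, 1475 and 1600 CPM to 3219, 3274 and 3382 CPM, without overlap. The log2 fold change was 1.29 ± 0.27 (adjusted p = 2.47e-04), where 6.08% of all miRNAs were higher, and the call held under all 10 alternatives and without each library. In Exe *Dnmt1*-KO it rose from 542, 864, 942 and 1027 CPM to 1422, 1651, 1680 and 2474 CPM, by 1.28 ± 0.26 (adjusted p = 7.13e-04; 9.27% higher). Without the libraries that stood apart, which include the E6.5 library of 542 CPM, that value was 0.83 (adjusted p = 0.0154), and without a filter or without E7.5 Exe *Dnmt1*-KO replicate 1 the call was lost (largest adjusted p without 1 library, 0.0713). In the other 6 combinations, its log2 fold change lay between 0.07 (Exe *Dnmt*-null) and 0.80 (Epi *Dnmt3a/3b*-DKO). The share of all miRNAs that were higher there was 5.62% in Exe control, 4.1% in Exe *Dnmt3a/3b*-DKO, 1.06% in Exe *Dnmt*-null, 1.67% in Epi *Dnmt1*-KO, 3.04% in Epi *Dnmt3a/3b*-DKO and 0.456% in Epi *Dnmt*-null. The other 4 members gave no call with all libraries in the model of all groups. miR-130a-3p in Epi control had 363 to 421 CPM at E6.5 and 463 to 584 CPM at E7.5, without overlap (adjusted p = 0.671), and was called in a fit of only these groups (0.56 ± 0.19, adjusted p = 0.0441).

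Other settings also called miR-130b-5p higher at E7.5 in 4 further combinations. In Exe control it had 940, 964, 1279 and 1688 CPM at E6.5 and 1765 to 2116 CPM at E7.5, without overlap (0.71 ± 0.26, adjusted p = 0.0754). The 1688 CPM belong to replicate 1, which stood apart; without that library it was called at 0.89 (adjusted p = 0.0472), and without all 5 such libraries at 0.94 (adjusted p = 0.00684). In Epi *Dnmt1*-KO (0.67 ± 0.26 with all libraries, adjusted p = 0.114) it was called with DESeq2 (0.75, adjusted p = 0.00888) and with 6 other settings. Among them was the one without the libraries that stood apart (0.78, adjusted p = 0.0150). It was also called without E6.5 replicate 1 or 2 or E7.5 replicate 4. In Epi *Dnmt3a/3b*-DKO (adjusted p = 0.0573) it was called with DESeq2 (0.68, adjusted p = 0.0318), with TMM factors without *Dlk1-Dio3* miRNAs, in a fit of only the groups compared, and without E7.5 replicate 3 or 4. In Exe *Dnmt3a/3b*-DKO (adjusted p = 0.134) it was called in a fit of only the groups compared (0.66, adjusted p = 0.0398) and without E7.5 replicate 1 or 2. For miR-130b-3p, the Exe control change was called without E6.5 replicate 3 (adjusted p = 0.0163).

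Marker miRNAs moved with stage in the same groups. In Epi control, the summed level of 5 miR-290 to miR-295 miRNAs of naive pluripotent cells and trophoblast was 59287 to 63256 CPM at E6.5 and 14449 to 14924 CPM at E7.5, and the *Sfmbt2* list 9712 to 45576 and 3328 to 4066 CPM. A list of 4 endoderm and liver miRNAs was at 745 to 1768 CPM and 3459 to 4174 CPM. In Exe *Dnmt1*-KO, the naive list was 56029 to 89437 CPM at E6.5 and 31721 to 46126 CPM at E7.5, and the *Sfmbt2* list 78231 to 113265 and 49851 to 77871 CPM. A list of 5 blood and endothelium miRNAs was 435 to 852 CPM at E6.5 and 1545 to 3861 CPM at E7.5 in Exe control. In Epi control it was 331 to 388 and 327 to 660 CPM, and in Exe *Dnmt1*-KO 366 to 8701 and 1220 to 2997 CPM, which overlapped. The part of these markers in the stage differences was not tested.

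**Figure D3:**
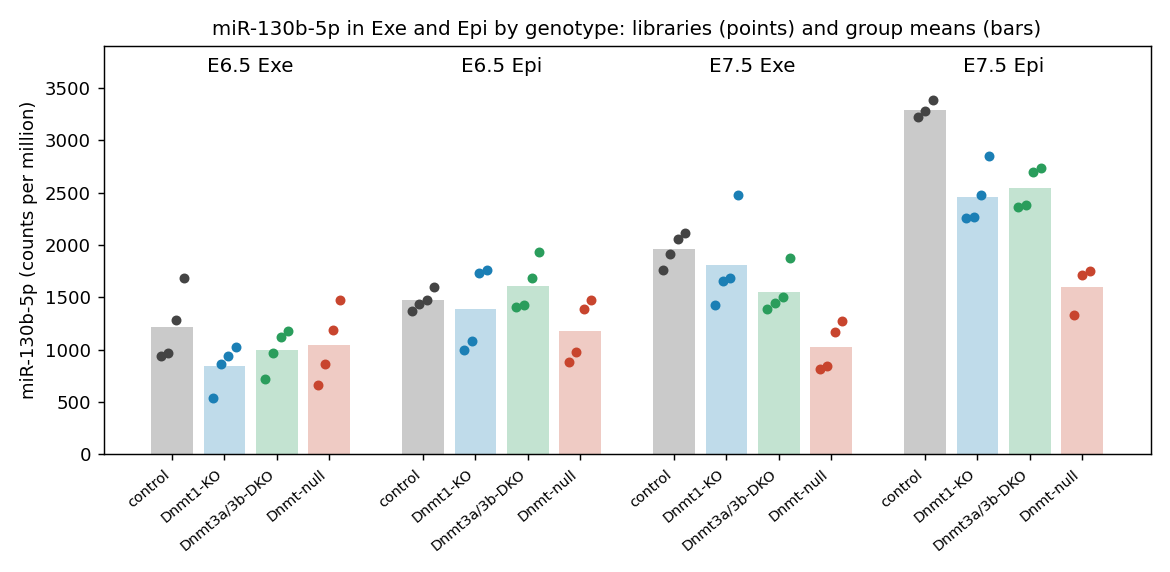
miR-130b-5p in CPM on a linear axis, in Exe and Epi at both stages and in each genotype; points are libraries and bars are group means. The highest group is E7.5 Epi control at 3219 to 3382 CPM, and E7.5 Epi *Dnmt*-null lies at 1328 to 1756 CPM.

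The third comparison asked what loss of the DNA methyltransferases does to the family within a tissue and stage. *Dnmt1* encodes the enzyme that maintains DNA methylation at replication, and *Dnmt3a* and *Dnmt3b* encode the enzymes that set it anew. Of 48 tests of a member against control, 6 passed, all with a lower level in the mutant and all at E7.5. In E7.5 Epi, miR-130b-5p was lower in each mutant. Control had 3219, 3274 and 3382 CPM, *Dnmt1*-KO 2253, 2265, 2473 and 2849 CPM, *Dnmt3a/3b*-DKO 2365, 2383, 2698 and 2739 CPM, and *Dnmt*-null 1328, 1715 and 1756 CPM. All control libraries were above all mutants, and all *Dnmt*-null libraries were below every library of the other genotypes, while *Dnmt1*-KO and *Dnmt3a/3b*-DKO overlapped.

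The log2 fold change of miR-130b-5p in E7.5 Epi against control was -1.28 ± 0.14 in *Dnmt*-null (adjusted p = 3.91e-06; 17.3% of 652 miRNAs lower). It was -0.61 ± 0.13 in *Dnmt1*-KO (adjusted p = 0.00290; 7.98% lower) and -0.46 ± 0.13 in *Dnmt3a/3b*-DKO (adjusted p = 0.0327; 1.69% lower). The *Dnmt*-null value lay between -1.28 and -0.95 over the 9 alternatives and was called in all 9 and without each library. The call in *Dnmt3a/3b*-DKO was lost under 5 of 9 alternatives and without any 1 of its 7 libraries. That of *Dnmt1*-KO was lost under 2 alternatives, with TMM factors that leave out miRNAs of the *Dlk1-Dio3* locus and without a filter. Over the 9 alternatives its value lay between -0.61 and -0.29. The median of all miRNAs was -0.19 for *Dnmt*-null, -0.15 for *Dnmt1*-KO and 0.02 for *Dnmt3a/3b*-DKO, and for *Dnmt*-null it was 0.13 with the TMM factors that leave out that locus. *Dnmt*-null was also lower than *Dnmt1*-KO by -0.67 ± 0.13 (adjusted p = 0.00320; 5.83% lower) and than *Dnmt3a/3b*-DKO by -0.82 ± 0.13 (adjusted p = 4.08e-04; 9.82% lower). Both calls held under all 9 alternatives and without each library. Over the alternatives the values lay between -0.71 and -0.62 and between -0.83 and -0.54.

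miR-130a-3p, from another chromosome, differed in another order of genotypes. In E7.5 Epi it had 463, 557 and 584 CPM in control and 453, 475, 504 and 649 CPM in *Dnmt1*-KO, which overlapped (log2 fold change -0.22 ± 0.24, adjusted p = 0.602). It had 216, 232, 249 and 392 CPM in *Dnmt3a/3b*-DKO and 225, 303 and 319 CPM in *Dnmt*-null, all below every control library and overlapping each other. Against control, the value was -1.06 ± 0.24 in *Dnmt3a/3b*-DKO (adjusted p = 0.00813) and -1.15 ± 0.26 in *Dnmt*-null (adjusted p = 0.00264), and both calls held under all 9 alternatives and without each library. *Dnmt*-null was lower than *Dnmt1*-KO by -0.93 ± 0.25 (adjusted p = 0.0209), a call lost with the replicate block and without any of 3 single libraries (*Dnmt*-null replicate 2 or 3, or *Dnmt1*-KO replicate 3; largest adjusted p, 0.0907). Against *Dnmt3a/3b*-DKO it was not called (-0.10 ± 0.24, adjusted p = 0.870). These comparisons share their control libraries.

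The other 3 members gave no call in E7.5 Epi. miR-130b-3p, from the same hairpin as miR-130b-5p, had 108, 127 and 234 CPM in control and 104, 121 and 154 CPM in *Dnmt*-null, which overlapped (log2 fold change -0.54 ± 0.35, adjusted p = 0.264). The arm ratio was 11.02-fold to 14.4-fold in *Dnmt*-null and 14.5-fold to 30.1-fold in control. miR-301b-3p had 37.6, 46.3 and 49.9 CPM in control and 7.33, 30.7 and 32.1 CPM in *Dnmt*-null, with no overlap but only 2, 15 and 9 counts in the mutant (-1.15 ± 0.91, adjusted p = 0.367). In *Dnmt3a/3b*-DKO it had 2.45, 12.2, 13.5 and 20.4 CPM, also below control (adjusted p = 0.187). Depth differed with genotype: totals were 1623256 to 2325698 counts in control and 272867 to 488108 in *Dnmt*-null.

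Marker miRNAs moved with genotype in E7.5 Epi. The summed level of the 4 miR-302 and miR-367 miRNAs was 200391 to 210611 CPM in control and 104300 to 163764 CPM in *Dnmt*-null. All 9 trophoblast miRNAs of the *Sfmbt2* list were detected in each genotype, at sums of 3328 to 4066 CPM in control, 4885 to 5465 CPM in *Dnmt1*-KO, 4314 to 9464 CPM in *Dnmt3a/3b*-DKO and 7004 to 14386 CPM in *Dnmt*-null. In E7.5 Exe control, whose miR-130b-5p was 1765 to 2116 CPM, that sum was 70032 to 86879 CPM. Other lists moved too, from control to *Dnmt*-null in E7.5 Epi. The miR-290 to miR-295 list was 14449 to 14924 and 23112 to 29600 CPM, and the endoderm and liver list 3459 to 4174 and 2334 to 3042 CPM. A mesenchyme list was 277 to 413 and 85.7 to 160 CPM, and a blood and endothelium list 327 to 660 and 219 to 300 CPM. The part of these markers in the lower miR-130b-5p and miR-130a-3p was not tested.

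In E7.5 Exe, 1 of 15 tests against control passed. miR-130b-5p had 1765, 1914, 2058 and 2116 CPM in control and 819, 841, 1169 and 1270 CPM in *Dnmt*-null, without overlap (log2 fold change -0.88 ± 0.25, adjusted p = 0.0282; 3.02% of 597 miRNAs lower). The call was lost under 2 of 9 alternatives and without *Dnmt*-null replicate 1 or 2 or control replicate 1 or 3 (largest adjusted p = 0.0909). *Dnmt1*-KO (1422 to 2474 CPM) and *Dnmt3a/3b*-DKO (1392 to 1879 CPM) overlapped control, and 0.838% and 0% of all miRNAs were lower in them. In a fit of only the groups compared, miR-130a-3p was called lower in *Dnmt3a/3b*-DKO (-1.35 ± 0.32, adjusted p = 0.0256). Against the other mutants, *Dnmt*-null gave no call in Exe with edgeR and all libraries, where 0.503% (*Dnmt1*-KO) and 2.51% (*Dnmt3a/3b*-DKO) were lower. Against *Dnmt1*-KO, miR-130b-5p was -0.84 ± 0.25 (adjusted p = 0.105), and it was called with DESeq2 (-0.81, adjusted p = 0.0404) and with edgeR without *Dnmt*-null replicate 4 (-1.06, adjusted p = 0.00958). miR-130a-3p had 193.8, 312, 344 and 554 CPM in control and 110, 116, 151 and 160 CPM in *Dnmt*-null, which did not overlap (-1.32 ± 0.50, adjusted p = 0.108). In E7.5 Exe *Dnmt*-null, the summed *Sfmbt2* list was 48615 to 85138 CPM. The miR-302 and miR-367 list was 17167 to 27241 CPM there, against 33048 to 45617 CPM in control. The blood and endothelium list was 360 to 2447 CPM in *Dnmt*-null and 1545 to 3861 CPM in control. The part of these lists was not tested.

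**Figure D4:**
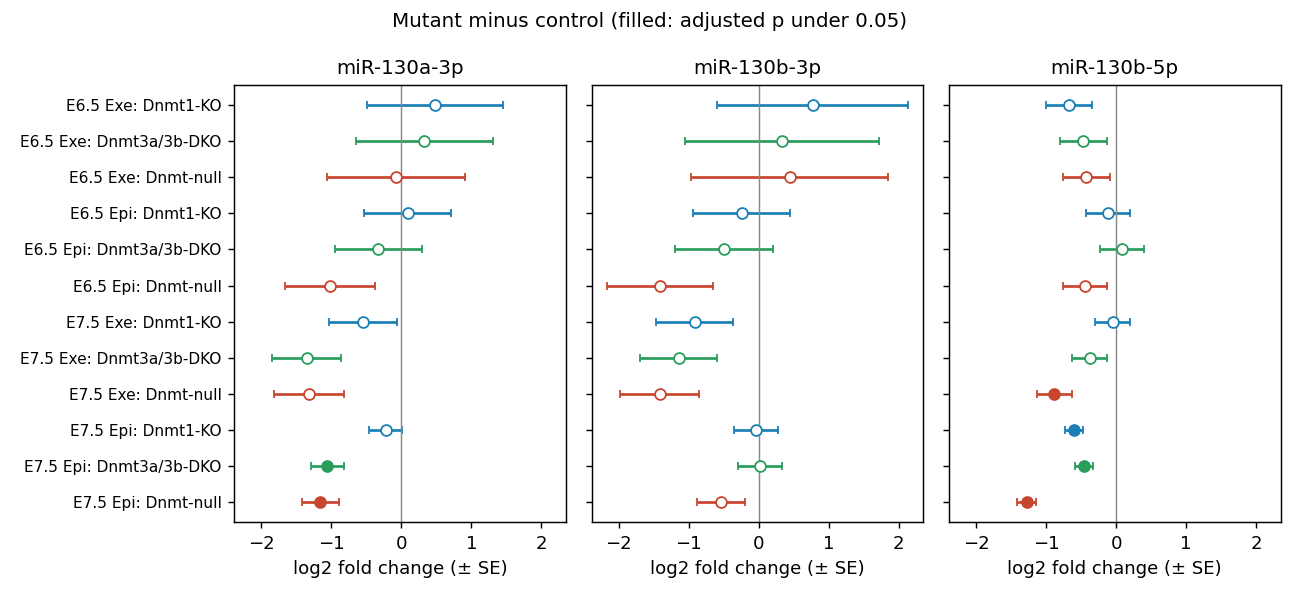
Log2 fold change (± SE) of 3 members in each mutant against control of the same tissue and stage, with filled points at adjusted p under 0.05. All 6 filled points lie below 0 and belong to E7.5, 5 of them to Epi.

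At E6.5, where miR-301a-3p and miR-301b-3p were too rare to be tested in these models, none of the tests of the other 3 members passed. miR-130b-5p had 1366 to 1600 CPM in Epi control and 885, 974, 1393 and 1471 CPM in *Dnmt*-null (log2 fold change -0.44 ± 0.32, adjusted p = 0.379), and in Exe 940 to 1688 CPM and 664, 865, 1188 and 1476 CPM (-0.42 ± 0.33, adjusted p = 0.695). Groups overlapped in both tissues. The share of all miRNAs that were lower than control was 0%, 0.266% and 0.266% in Exe and 0%, 0% and 4.65% in Epi, with *Dnmt1*-KO first, then *Dnmt3a/3b*-DKO and last *Dnmt*-null. Against the other mutants, 0% were lower in Exe *Dnmt*-null, and 0.733% and 0.244% in Epi. DESeq2 called none of the tests against control, and none had an unadjusted edgeR p under 0.05 with all libraries; without *Dnmt*-null replicate 3, edgeR called miR-130b-3p in Epi (-2.46, adjusted p = 0.0492). The summed miR-302 and miR-367 list was 47832 to 99270 CPM in E6.5 Epi *Dnmt*-null and 129048 to 198436 CPM in control; its part was not tested. Whether the *Dnmt*-null difference itself differed between stages or tissues was tested directly. For miR-130b-5p in Epi, E7.5 minus E6.5 was -0.63 ± 0.39 (adjusted p = 0.376; 2.89% of all miRNAs lower, median of all 0.57), and none of the 25 interaction tests of a member passed with edgeR, while 3 had an unadjusted p under 0.05 and DESeq2 called 1, this same contrast of miR-130b-5p at -1.05. In the other 4 interaction contrasts, 0.304% to 0.608% of all miRNAs were lower. Of these, 1 compared Exe minus Epi of controls between stages and held no *Dnmt*-null library. It gave 1 of the 3 unadjusted results, that of miR-301b-3p.

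Related miRNAs were taken from a list of 11 names: the opposite arms, other miRNAs with this seed, and miRNAs whose seed overlaps it. The table held 9 of them, and 8 reached 10 CPM in at least 4 of the 16 Exe and Epi groups; miR-130c had no counts in those groups. In E7.5 Epi *Dnmt*-null against control, 3 of these 8 were lower and 0 were higher, where 17.3% of all 652 miRNAs tested were lower. One of them, mmu-miR-301b-5p, is the opposite arm of miR-301b-3p and had 37.0, 62.3 and 77.7 CPM in control and 0, 2.05 and 10.7 CPM in *Dnmt*-null, which are 0, 1 and 3 counts (adjusted p = 0.00370). It was also lower in *Dnmt*-null than in *Dnmt1*-KO (adjusted p = 0.0204) and *Dnmt3a/3b*-DKO (adjusted p = 0.0106), and no fold is given for so few counts. miR-148a-3p, whose seed is CAGUGCA, was lower in *Dnmt*-null by -0.68 ± 0.13 (adjusted p = 6.33e-04) and miR-148b-3p by -0.82 ± 0.30 (adjusted p = 0.0455). The median of the 8 was -0.75, beside -0.19 over all miRNAs. In levels over the 16 groups, miR-148a-3p had group means of 3327 to 6401 normalized CPM and was the most abundant of the list, while miR-19b-3p, with the seed GUGCAAA, had 85.9 to 530 normalized CPM.

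In likeness over the mean log2 normalized CPM of the 16 Exe and Epi groups, miR-130a-3p and miR-130b-3p followed each other most closely within the family (Pearson r = 0.922), and miR-130b-5p and miR-301b-3p least (r = 0.659). The arms of *Mir130b* had r = 0.828. The ranking over 626 candidate miRNAs left the members themselves out. Outside the family, the closest to miR-130b-5p were miR-423-3p (r = 0.951), miR-342-3p (0.939) and miR-92a-3p (0.929). Those closest to miR-130a-3p were miR-872-3p (0.916), miR-374b-5p (0.896) and miR-17-3p (0.889), and to miR-130b-3p they were miR-302c-5p (0.917), miR-5113 (0.911) and miR-1955-5p (0.908). For miR-301a-3p, miR-331-3p (0.895), miR-26b-3p (0.839) and miR-574-3p (0.837) came first, and for miR-301b-3p, miR-139-3p (0.905), miR-19b-3p (0.894) and miR-652-3p (0.874). The points are groups that share libraries, depth and scaling across all miRNAs, so these values are descriptions.

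AG-haESCs are haploid cells with a sperm genome. miR-130b-5p had 1198, 1294 and 1294 CPM in WT and 1461, 1499 and 1637 CPM in O48, without overlap (log2 fold change 0.31 ± 0.11, adjusted p = 0.108), and none of the 5 members passed between these lines with edgeR. By unadjusted p, 1 of 5 was under 0.05, and DESeq2 called 2, miR-130b-5p at 0.69 and miR-130b-3p at 1.07. edgeR also called miR-130b-5p with RLE factors (0.69), with TMM factors without *Dlk1-Dio3* miRNAs (0.49), without a filter (0.55) and without O48 replicate 2 (0.37, adjusted p = 0.046). The median of all miRNAs was -0.28, and 2.2% were higher. miR-130a-3p was lower than in any Epi control, at 44.6, 55.2 and 68.1 CPM in WT.

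The libraries labelled Mir-6KO went against their label. miR-127-3p, one of the 6 deleted miRNAs, had 35728 and 44853 CPM there, against 551 to 594 CPM in O48 and 12493 to 12811 CPM in WT, and the other 5 were also above every O48 library. The summed miR-302 and miR-367 list had 238769 and 267003 CPM in the libraries labelled Mir-6KO against 918 to 1658 CPM in O48, and was 177519 to 219489 CPM in E7.5 SC control. The list of miR-290 to miR-295 miRNAs had 10546 and 12117 CPM against 67214 to 79297 CPM in O48. With that stated, 4 of 5 members were higher in the libraries labelled Mir-6KO than in O48, where 20.4% of 773 miRNAs were higher and the median of all was -0.82. miR-130b-5p had 3316 and 3400 CPM against 1461 to 1637 CPM (log2 fold change 0.63 ± 0.12, adjusted p = 0.00268), a call that held under all 8 alternatives and without each O48 library. Over the alternatives its value lay between 0.44 and 1.13. For miR-130a-3p (127 and 225 against 39.0 to 67.0 CPM, adjusted p = 0.0462), miR-130b-3p (104 and 112 against 26.0 to 39.8 CPM, adjusted p = 0.0472) and miR-301b-3p (18.3 and 52.1 against 4.11 to 10.3 CPM, adjusted p = 0.0436), the groups did not overlap, and each call was lost without a filter and with the replicate block. Each was also lost without O48 replicate 3, miR-130a-3p and miR-130b-3p without O48 replicate 2, and miR-130a-3p and miR-301b-3p without O48 replicate 1. Leaving out a library labelled Mir-6KO leaves 1 library in that arm, so only effect sizes are given for it. With any 1 library left out, the log2 fold changes lay between 0.48 and 1.57 for miR-130a-3p. They lay between 1.09 and 1.42 for miR-130b-3p and between 0.81 and 2.58 for miR-301b-3p. The part of the identity of these libraries was not tested.

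**Figure D5:**
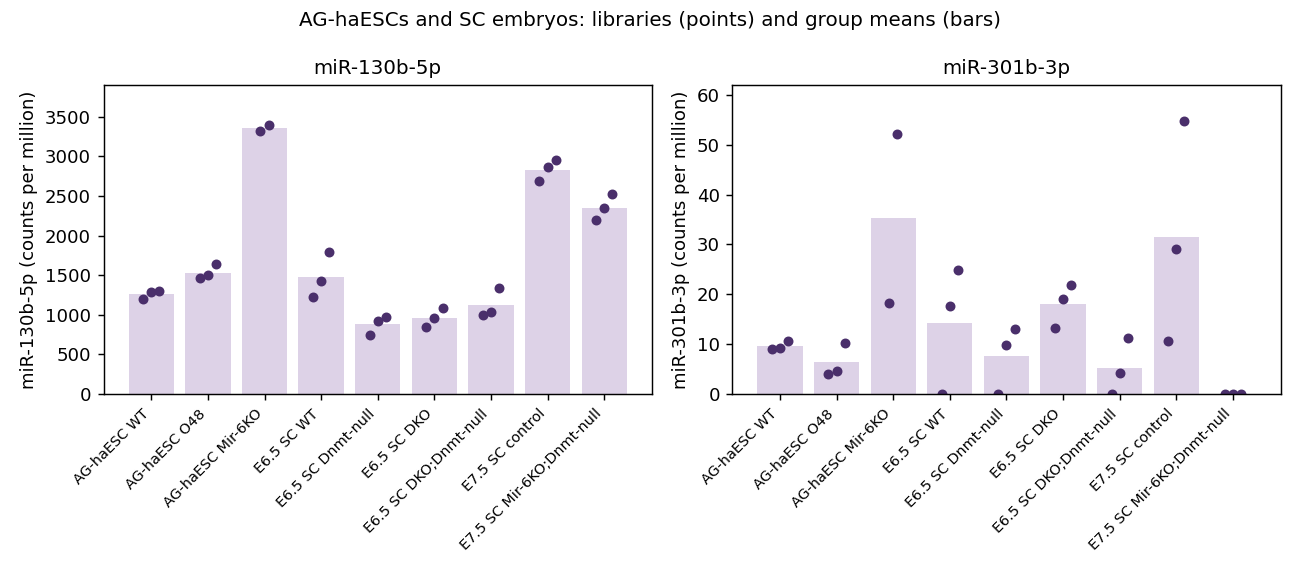
miR-130b-5p and miR-301b-3p in AG-haESCs and SC embryos, in CPM on linear axes; points are libraries and bars are group means. miR-130b-5p is highest in the libraries labelled Mir-6KO (3316 and 3400 CPM) and E7.5 SC control, and miR-301b-3p is at 0 in the 3 libraries of E7.5 SC Mir-6KO;*Dnmt*-null.

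In SC embryos, 5 of 21 tests of a member passed. From E6.5 DKO to E7.5 control, both derived from DKO cells, miR-130b-5p went from 850, 958 and 1085 CPM to 2683, 2860 and 2951 CPM, without overlap. It was higher at E7.5 by 1.79 ± 0.13 (adjusted p = 2.79e-04; 12.1% of 721 miRNAs higher), under all 8 alternatives and without each library. miR-130a-3p was lower at E7.5, with 133, 146 and 152 CPM against 228, 239 and 275 CPM (-0.56 ± 0.15, adjusted p = 0.0334; 16.6% lower), a call lost under 2 of 8 alternatives and without E7.5 control replicate 2 or any 1 DKO library (largest adjusted p = 0.180). The 2 groups were also sequenced to different depths, 13306003 to 26970637 counts at E7.5 and 2150520 to 2425038 at E6.5. The paper names the epiblast for SC embryos at E6.5 and no part of the embryo for those at E7.5. A difference of stage and one of tissue can therefore not be told apart here. The summed list of miR-290 to miR-295 miRNAs was 54779 to 58965 CPM at E6.5 and 16128 to 16448 CPM at E7.5, and the *Sfmbt2* list 26225 to 29813 and 6721 to 17303 CPM; their part was not tested.

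Between DKO;*Dnmt*-null and DKO at E6.5, 3 of 5 members were lower with *Dnmt* loss, where 16.4% of 603 miRNAs were lower. miR-130a-3p had 181, 204 and 209 CPM against 228, 239 and 275 CPM (-0.41 ± 0.15, adjusted p = 0.0382), and miR-130b-3p 39.5, 46.8 and 62.5 CPM against 64.1, 71.8 and 83.7 CPM (-0.70 ± 0.26, adjusted p = 0.0410). Neither overlapped, and the calls were lost under 5 and 3 of 8 alternatives. That of miR-130a-3p was also lost without any single library but DKO replicate 3 (largest adjusted p = 0.139), and that of miR-130b-3p without any but DKO replicate 2 or DKO;*Dnmt*-null replicate 3 (0.239). miR-301b-3p had 0, 1 and 2 counts in DKO;*Dnmt*-null and 32, 41 and 51 counts in DKO, a ratio of summed counts per total of 10.7-fold with a 95% exact counting interval of 3.56 to 52.4 (adjusted p = 0.0102). That call was lost without DKO replicate 2 or DKO;*Dnmt*-null replicate 1, the latter the library with 0 counts of 1366522 (largest adjusted p = 0.264). With 1 library left out, its log2 fold change lay anywhere between -4.69 and -1.39. miR-301a-3p was not called (-2.13 ± 0.83, adjusted p = 0.0539), but was without a filter (adjusted p = 0.0297) and without DKO;*Dnmt*-null replicate 2 or 3. miR-130b-5p overlapped, with 996, 1037 and 1332 CPM against 850 to 1085 CPM (0.09 ± 0.12, adjusted p = 0.595). Of the 8 related miRNAs, 5 were lower (among them miR-301b-5p at -0.89, adjusted p = 0.0187) and 1, miR-152-3p, was higher by 1.81 (adjusted p = 0.00912). The counts of the 2 groups come from separate raw tables, with totals of 177142 to 1366522 in DKO;*Dnmt*-null and 2150520 to 2425038 in DKO. The summed miR-302 and miR-367 list was 129530 to 146408 CPM in the former and 176985 to 195694 CPM in the latter, and the *Sfmbt2* list 31934 to 40828 and 26225 to 29813 CPM; their part was not tested.

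In SC embryos of WT origin, miR-130b-5p had 1227, 1425 and 1794 CPM in WT and 750, 919 and 967 CPM in *Dnmt*-null, without overlap. With all libraries, edgeR did not call it (-1.05 ± 0.29, adjusted p = 0.142, where 0 of 461 miRNAs were lower) and DESeq2 did (-1.11, adjusted p = 0.00349). Without SC WT replicate 3, edgeR called it too (-1.002 ± 0.23, adjusted p = 0.0276). That replicate had a summed miR-302 and miR-367 level of 21179 CPM, against 194255 and 213506 CPM in the other WT libraries and 82078 to 122187 CPM in *Dnmt*-null; its part was not tested. Against E6.5 Epi control, the values of miR-130b-5p in SC WT lay side by side at 1227 to 1794 and 1366 to 1600 CPM. DKO minus WT gave no call with edgeR (miR-130b-5p -0.80 ± 0.29, adjusted p = 0.269; 0.217% lower), and DESeq2 called miR-130b-5p (-0.86, adjusted p = 0.0317). WT SC embryos minus WT AG-haESCs gave none of 5 with edgeR and all libraries, where 17.4% of 603 miRNAs were higher; 1 of 5 had an unadjusted p under 0.05 and DESeq2 called 1, miR-130b-3p (1.59, adjusted p = 0.0134). Without replicate 3, miR-130a-3p was higher in SC embryos by 1.65 ± 0.29 (adjusted p = 0.00193), miR-130b-3p by 1.88 ± 0.47 (adjusted p = 0.0117) and miR-301a-3p by 1.64 ± 0.55 (adjusted p = 0.0398), and miR-130b-5p was not called (-0.35 ± 0.20, adjusted p = 0.184).

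At E7.5, miR-301b-3p was not detected in the 3 SC libraries labelled Mir-6KO;*Dnmt*-null (0 of 34646333 counts), and had 10.6, 29.1 and 54.8 CPM (285, 387 and 1046 counts) in SC control. Against 3 counts over the 3 libraries, or 0.0866 CPM, it was at least 364-fold higher in control, a bound that covers counting error only. The edgeR test did not call it (adjusted p = 0.0820), and DESeq2 did. Deep libraries also lacked other rare members: miR-301a-3p had 0 counts in 1 library labelled Mir-6KO of 16501907 counts and 372 counts in the other, of 8533089. miR-130b-5p had 2193, 2341 and 2520 CPM in Mir-6KO;*Dnmt*-null against 2683, 2860 and 2951 CPM in control, which did not overlap (-0.50 ± 0.19, adjusted p = 0.321; 0.342% of 585 miRNAs lower). edgeR called no member there, and 2 of 5 had an unadjusted p under 0.05 and an absolute log2 fold change above 0.5. The summed miR-302 and miR-367 list was 77284 to 169961 CPM in Mir-6KO;*Dnmt*-null and 177519 to 219489 CPM in control. The paper describes the miRNA deletions of such embryos as heterozygous. Of the targeted miRNAs, miR-127-3p had 34218 to 51921 CPM against 52288 to 67386 CPM in control. For miR-369-3p the values were 72.0 to 147 and 130 to 140 CPM. The part of the markers and of the identity of these libraries was not tested.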

How the data were processed

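The authors deposited raw read counts, 1 for each mature miRNA in each library and not normalized. Their notes name fastp 0.20.1 for trimming, Bowtie 1.2.1.1 for alignment, the build GRCm38, and DESeq2 1.30.1. Libraries were made from 100 pg of RNA with amplification, and molecular identifiers are not described, so intervals and detection limits cover counting error only. An earlier copy of the main table holds 2 columns of no sample; they were not used. The 3 libraries of the AG-haESC line in no group entered no comparison.

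Groups were taken from the labels. The main test was edgeR 4.0.16, quasi-likelihood F-test (limma 3.58.1, R 4.3.3), TMM normalization, filterByExpr with a count minimum of 10 and Benjamini-Hochberg adjustment over all miRNAs tested; a call is an adjusted p under 0.05. One model held the Exe and Epi groups for tissue, stage and interaction, 4 models held the genotypes of each tissue and stage, and AG-haESCs and SC embryos had their own. SE is the log2 fold change divided by the root of F. Alternatives were DESeq2 1.42.0, RLE, total counts, TMM factors without 109 *Dlk1-Dio3* miRNAs, no filter, a mean of 10 counts, only the groups compared, a replicate block, the study's thresholds (absolute log2 fold change above 0.5, unadjusted p under 0.05), leaving out each library and, added after seeing the data, leaving out the libraries that stood apart. No replicates were copies (lowest chi-squared per degree of freedom 4.77 over 115 pairs). The procedure was tested on simulated data. Members and lists were chosen with earlier results of these data known. The 5 members, the 3 closest miRNAs outside the family to each and the related miRNAs over 10 CPM in at least 4 groups are named by rule. The level of a miRNA with 0 counts in a group was set at 3 counts for folds. Ratios used 0.5 added to each count.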

Additional observations from a re-analysis of the deposited data

Results flagged for a closer look

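In 68 groups of at least 4 libraries with differing values, 3 held 1 library far from the others. A group with counts in 1 library and 0 in all others is flagged by construction, so no chance rate is given. miR-301a-3p was 48.7 CPM (6 counts) in E6.5 Epi *Dnmt*-null replicate 4 and 0 in the other 3 libraries. It was 53.1 CPM (10 counts) in E6.5 Epi *Dnmt3a/3b*-DKO replicate 4, and 0 to 4.72 CPM in the others. miR-301b-3p was 15.05 CPM (2 counts) in E6.5 Exe *Dnmt*-null replicate 1 and 0 in the others. All 3 values are high and rest on 10 counts or fewer.

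In the 3 AG-haESC libraries of the line that the labels put in no group, the lowest level of miR-130b-5p was 1373 CPM, above every AG-haESC WT library (1198 to 1294 CPM).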

How the results depend on the processing

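The count of members called changed by over 1.5 times in these cases, and the causes were not tested. For Exe against Epi (7 calls), DESeq2 gave 11, no filter 1, leaving out the libraries that stood apart 12 and the study's thresholds 13. For E7.5 against E6.5 (2), DESeq2, TMM factors without *Dlk1-Dio3* miRNAs and leaving out the libraries that stood apart gave 4 each, no filter 1, fits of only the groups compared 6 and the study's thresholds 11. For mutant against control (6), TMM factors without *Dlk1-Dio3* miRNAs gave 3. For interactions (0), DESeq2 gave 1 and the study's thresholds 3. For AG-haESCs (4), no filter gave 2. For SC embryos (5), total counts and TMM factors without *Dlk1-Dio3* miRNAs gave 3 each and the study's thresholds 9. For SC embryos against AG-haESCs (0), DESeq2, total counts, TMM factors without *Dlk1-Dio3* miRNAs and the study's thresholds gave 1 each, and leaving out the libraries that stood apart 3.

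Without each library in turn, the counts were 5 to 8 for Exe against Epi, 1 to 3 for stages (1 without E7.5 Exe *Dnmt1*-KO replicate 1), 5 to 7 for mutants, 2 to 4 for *Dnmt*-null against the other mutants (2 without E7.5 Epi *Dnmt*-null replicate 2 or 3 or *Dnmt1*-KO replicate 3), 0 for interactions, 1 to 4 for AG-haESCs (1 without O48 replicate 3, 2 without O48 replicate 1 or Mir-6KO replicate 2), 2 to 6 for SC embryos (2 without E6.5 SC DKO replicate 1 or 2 or DKO;*Dnmt*-null replicate 1, 3 without DKO replicate 3) and 0 to 3 against AG-haESCs (3 without E6.5 SC WT replicate 3). For miR-301a-3p, the libraries labelled Mir-6KO minus O48 turned from 1.6 to -8.51 (adjusted p = 0.00334) without Mir-6KO replicate 2 and was 2.60 without replicate 1, since the other library had 0 counts.

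Same-numbered libraries of different groups had median correlations of their deviations of 0.00311 to 0.0451. Between Exe and Epi of 1 genotype and stage, 8 of 30 same-numbered pairs were over 0.1, against 3 of 90 others. The labels tie no number to an embryo, so the numbers were not taken as pairs. Whether same-numbered Exe and Epi came from the same embryos was not tested. The replicate block gives each number a single effect over all groups of a model. It therefore cannot model pairs within a genotype and stage. With the replicate block, the count was 1 for AG-haESCs and 3 for SC embryos, and it was 7, 2, 5, 2, 0 and 0 for tissue, stage, mutant, *Dnmt*-null against other mutants, interaction and SC against AG-haESCs. Depth limits the rare members: at the lowest total, 3 counts are 66.3 CPM.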
